A study of Mus musculus with 43 samples.

Results

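The genes described here encode enzymes of the citric acid (TCA) cycle, of the entry of pyruvate into it, and of the breakdown of branched-chain amino acids and ketone bodies. They were chosen by name, from 3 lists of 46 genes. Of these, 44 of the 22622 gene identifiers in the tables carry a named member: 13 in the TCA cycle, 13 in pyruvate entry and 18 in branched-chain and ketone body breakdown. Idh2 and Aldh6a1 were not analysed here. All 44 passed the filter on low values in each of the 5 tables, so none was dropped by it.

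The tissue was the inguinal fat pad of the mouse, a white depot near the groin where beige adipocytes, fat cells that make heat, can form. The 43 libraries fall into 9 groups, all described by the labels as this tissue. Wild-type C57BL/6J mice were sampled at postnatal day 28 (P28) after housing at 22 C (n = 4) or 30 C (n = 4), and at 9 weeks at 22 C (n = 4) or 4 C (n = 4). Mice with floxed TrkA and Th-cre were sampled at P28 and 22 C (n = 4). Mice with floxed Bcl6, a transcriptional repressor, were sampled without Cre (n = 7) or with Prx1-cre (n = 8) at P25 and 22 C, and again without Cre (n = 4) or with Prx1-cre (n = 4) at 9 weeks and 4 C. All Bcl6 groups carry the floxed allele. The TrkA group was compared with wild-type mice, so the floxed allele and Th-cre are not separated from the genetic background. Th-cre is driven by the tyrosine hydroxylase promoter and so acts in catecholamine cells such as sympathetic neurons, whose cell bodies lie outside the depot. Prx1-cre is active in mesenchyme of the limbs and elsewhere, and not only in fat cells. The series title frames the comparisons as a question about beige fat near weaning and in the cold.

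Bcl6 gave a limited check of the labels. Gene totals do not show which exons were read. At P25 it read 825 ± 340 normalized counts in floxed libraries (SD, n = 7) and 2714 ± 584 in those labelled Prx1-cre (SD, n = 8). At 9 weeks the values were 1607 to 2529 in the 4 floxed libraries and 9624 to 14493 in the 4 labelled Prx1-cre, so the total was higher with Prx1-cre at both ages. Each direction below therefore refers to the libraries as labelled. Fat cell markers were high in every group, but skeletal muscle genes varied widely between libraries, and their values stand beside the results they move with. Whether the samples of a group came from separate animals is not stated in the labels; the p-values describe the spread between samples only. Estimated depth ran from 3486370 to 30117500 reads per library.

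The TCA cycle burns acetyl groups in the mitochondrial matrix. Citrate synthase (Cs) joins acetyl-CoA to oxaloacetate, and isocitrate dehydrogenase (subunits Idh3a, Idh3b and Idh3g) and the oxoglutarate dehydrogenase complex (Ogdh, Dlst, Dld) release carbon dioxide and make NADH. Succinyl-CoA synthetase pairs Suclg1 with either Sucla2 (the ATP form) or Suclg2 (the GTP form), and fumarase (Fh1) and malate dehydrogenase (Mdh2, with cytosolic Mdh1) close the cycle. Pyruvate crosses the inner membrane through Mpc1 and Mpc2 and becomes acetyl-CoA through the pyruvate dehydrogenase complex (Pdha1, Pdhb, Dlat, Pdhx, Dld), which is switched off by the kinases Pdk1 to Pdk4 and on by the phosphatases Pdp1 and Pdp2. Pyruvate carboxylase (Pcx) makes oxaloacetate instead. Branched-chain amino acids lose their amino group through Bcat1 (cytosolic) or Bcat2 (mitochondrial), and the keto acids enter the branched-chain dehydrogenase (Bckdha, Bckdhb, Dbt), which Bckdk switches off and Ppm1k switches on. Separate routes then lead through Ivd, Mccc1, Mccc2 and Auh (leucine) or Acadsb, Acad8, Hibch, Hibadh and the propionyl-CoA carboxylase subunits Pcca and Pccb (isoleucine and valine). Thermogenic fat is known as a tissue rich in mitochondria that takes up and oxidises these fuels.

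Promoter windows from RefSeq on GRCm38.p6, running from 250 bases before to 50 after each gene's start, were found for 41 of the 44 genes, and 5 motifs were searched on both strands. The cAMP response element TGACGTCA lay in the windows of 2 of the 41 genes (4.88%; 2.03% of all genes with a window). The motif TTCCNNGAA, bound by STAT5 and by Bcl6, lay in 2 (4.88%; 5.60% of all genes), and the ETS motif CCGGAAGT in 1, that of Dlst (2.44%; 4.31%). The estrogen-related receptor motif TCAAGGTCA was in 0 of 41 (126 of 27025 genes overall) and the NRF1 motif in 0 of 41 (1.07% of all genes). Below are the 150 bases before the start of the 4 genes with one of the 2-gene motifs, 5′ to 3′ on the gene's strand with the match in capitals. The 4 genes were picked by the match alone and not by their fold changes.
Ogdh, chr11:6291447-6291596, plus strand: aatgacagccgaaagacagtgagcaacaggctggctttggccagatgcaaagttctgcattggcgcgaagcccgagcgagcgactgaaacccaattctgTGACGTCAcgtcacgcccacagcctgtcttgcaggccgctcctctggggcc
Mdh2, chr5:135778499-135778648, plus strand: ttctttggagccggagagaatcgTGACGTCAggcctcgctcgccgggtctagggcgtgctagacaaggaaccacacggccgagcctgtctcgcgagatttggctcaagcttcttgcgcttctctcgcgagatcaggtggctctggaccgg
Ivd, chr2:118861844-118861993, plus strand: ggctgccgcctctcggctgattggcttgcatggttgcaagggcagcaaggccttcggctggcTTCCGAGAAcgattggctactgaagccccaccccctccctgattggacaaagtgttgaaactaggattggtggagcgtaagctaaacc
Pccb, chr9:101034885-101035034, minus strand: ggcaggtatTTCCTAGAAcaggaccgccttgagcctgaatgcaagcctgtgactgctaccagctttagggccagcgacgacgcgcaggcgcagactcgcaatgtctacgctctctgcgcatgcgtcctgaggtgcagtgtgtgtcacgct
The start is that of the RefSeq promoter table, which for Ivd and Pccb lies inside the gene span given in the gene table, so that 35 and 56 of their printed bases fall within the gene. From the table's starts the matches begin 51 (Ogdh), 127 (Mdh2), 88 (Ivd) and 141 (Pccb) bases upstream, and 53 (Ivd) and 85 (Pccb) bases upstream of the gene span. Ogdh has 6 starts in the table, of which 3 have the match in their window, and the first is used. A match describes letters and is neither a bound site nor a cause, and these counts rest on exact letters in a short window.

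Levels of different genes were compared per kilobase of the longest annotated protein-coding transcript, in the 4 wild-type libraries at P28 and 22 C (mean ± SD of the normalized count per kilobase, n = 4). The highest were Pcx at 2411 ± 623, Mdh2 at 2085 ± 272, Pdha1 at 1984 ± 414, Pdhb at 1965 ± 429 and Cs at 1952 ± 219, which did not differ beyond their spread. Alternative subunits were far apart. Sucla2 stood at 1007 ± 98.4 per kilobase and Suclg2 at 238 ± 45.7, and Bcat2 at 649 ± 70.6 and Bcat1 at 9.66 ± 3.18. Among the pyruvate dehydrogenase kinases, Pdk4 (684 ± 292) and Pdk2 (387 ± 77.7) overlapped within 1 SD, above Pdk1 (152 ± 10.9) and Pdk3 (32.7 ± 10.4). Partners of a complex were not read at equal levels either: Dlat stood at 436 ± 80.6 and Pdhx at 7.27 ± 1.79, and Mccc2 at 276 ± 24.0 and Mccc1 at 35.0 ± 9.71. Acad8 was the lowest, at 5.67 ± 3.45.

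**Figure D1:**
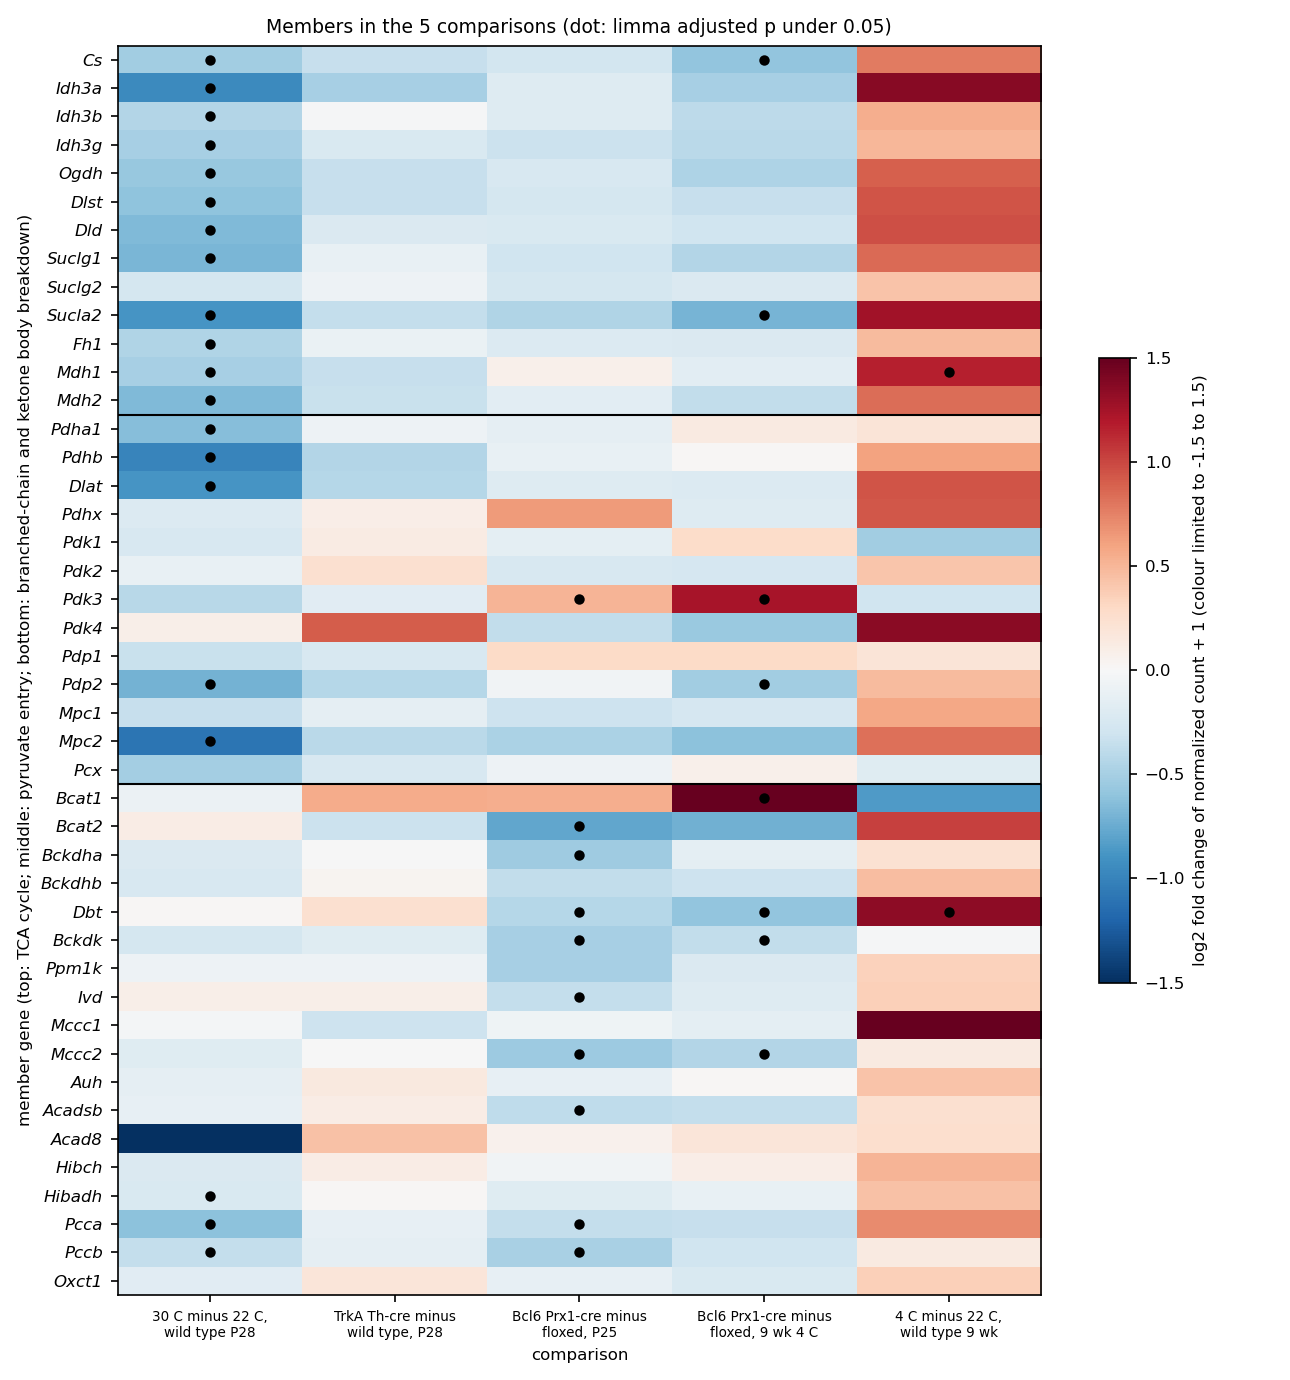
The colour shows the limma log2 fold change of the normalized count + 1 for each of the 44 genes (vertical axis) in the 5 comparisons (horizontal axis), limited to -1.5 to 1.5, and dots mark an adjusted p under 0.05. Dots fill the TCA cycle block in the 30 C column (12 of 13 genes), lie mainly in the branched-chain block in the P25 Bcl6 column (9 of its 10 dots), and are absent from the TrkA column.

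At P28, warm housing at 30 C went with lower TCA cycle transcripts than 22 C. Of the 44 genes, 20 fell, where 3.17% of all tested genes fell (389 of 12283), and 0 rose, where 1.29% did. In either direction 4.45% of all tested genes were called. An unadjusted p under 0.05 was found for 26 of the 44 and 19.4% of all tested genes. In the TCA cycle 12 of 13 fell, in pyruvate entry 5 of 13 and in branched-chain breakdown 3 of 18, each by limma on log2(value + 1) with p adjusted over all tested genes. The median log2 fold change was -0.56 in the TCA cycle, -0.42 in pyruvate entry and -0.18 in branched-chain breakdown, and 0.01 over all tested genes. In 23 of the 44, every 30 C library lay below every 22 C library, as in 7.72% of all tested genes, and in 0 every 30 C library lay above (5.23%). In bulk tissue, fewer cells of a type and less RNA per cell cannot be told apart.

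Idh3a (gene ID 67834, mm10 chromosome 9, 54586511 to 54604662), the catalytic subunit of isocitrate dehydrogenase, read 2941, 3353, 2472 and 3095 normalized counts at 22 C and 1530, 1455, 1439 and 1662 at 30 C. The groups did not overlap and the 30 C libraries lay close together, 1.94-fold lower. Sucla2 (gene ID 20916, chromosome 14, 73552786 to 73596144) read 2428, 2340, 1928 and 2280 at 22 C and 1350, 1061, 1075 and 1390 at 30 C, a log2 fold change of -0.89 ± 0.11 (SE; adjusted p = 0.00507). Its alternative partner Suclg2 was the TCA cycle gene that did not pass, with 629, 737, 988 and 850 at 22 C against 720, 768, 639 and 531 at 30 C, overlapping groups and a log2 fold change of -0.26 ± 0.15 (adjusted p = 0.402). Cs, the first step, read 5827, 6362, 4829 and 5833 against 3915, 4202, 3691 and 4091, a smaller fall of 0.52 on the log2 scale (SE 0.09; adjusted p = 0.0167). The other cycle genes that fell ran from Idh3b, Fh1, Mdh1 and Idh3g (-0.44, -0.45, -0.50 and -0.50) through Ogdh (-0.56) and Dlst (-0.60) to Mdh2, Dld and Suclg1 (-0.66, -0.67 and -0.68). None of these 9 overlapped between the groups.

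In pyruvate entry, 22 C replicate 3 was the lowest 22 C library for 10 of the 13 genes. Mpc2, a pyruvate carrier subunit (gene ID 70456, chromosome 1, 165461260 to 165481218), read 1087, 1380, 884 and 1310 at 22 C and 503, 616, 536 and 501 at 30 C, a log2 fold change of -1.09 ± 0.14 (adjusted p = 0.00499). Its partner Mpc1 read 1171, 1117, 552 and 1739 against 934, 1166, 627 and 697, with overlapping groups and no call (-0.35 ± 0.33, adjusted p = 0.634). Pdhb, the catalytic beta subunit, read 3010, 3568, 2060 and 3253 against 1419, 1608, 1427 and 1398 (-0.99 ± 0.15, adjusted p = 0.0105). Dlat, the acetyl-transferring core, read 1696, 2152, 1365 and 1821 against 900, 955, 971 and 942 (-0.88 ± 0.12, adjusted p = 0.00674). Neither overlapped. Pdha1 fell by 0.64 (SE 0.14, adjusted p = 0.0401) and the activating phosphatase Pdp2 by 0.71 (SE 0.15, adjusted p = 0.0313). The kinase Pdk4 overlapped fully, with 2514, 3760, 1489 and 1764 at 22 C and 2942, 1901, 2246 and 2560 at 30 C (0.09 ± 0.27, adjusted p = 0.904). Pcx read 9248, 12509, 6706 and 11533 against 5336, 8326, 6879 and 7126 and did not pass (-0.51 ± 0.20, adjusted p = 0.211).

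In branched-chain breakdown, the genes that fell lie late in the valine and isoleucine routes. Pcca (gene ID 110821, chromosome 14, 122484365 to 122889944) read 835, 891, 809 and 1010 at 22 C and 569, 545, 576 and 607 at 30 C (-0.62 ± 0.08, adjusted p = 0.00499), and its partner Pccb fell by 0.36 (SE 0.08, adjusted p = 0.0341). Hibadh fell by 0.23 (SE 0.05, adjusted p = 0.0435). The first enzymes did not pass: Bcat2 had a log2 fold change of 0.11 ± 0.09 (adjusted p = 0.551), Bckdha of -0.21 ± 0.10 (0.289) and Bckdhb of -0.24 ± 0.06 (0.0712). Dbt read 578, 633, 603 and 717 against 643, 625, 677 and 612, with overlapping groups (0.02 ± 0.08, adjusted p = 0.933).

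Genes of the same pathways outside the 44 were counted from fixed lists. Of 13 tested other TCA cycle genes 4 fell and 0 rose (median -0.40), among them the succinate dehydrogenase subunit Sdhd (-0.44) and Idh1 (-0.41). Of 15 other pyruvate, citrate and malate genes 1 fell, the lactate dehydrogenase subunit Ldhb (-0.66), and of 15 other branched-chain genes 4 fell, among them Acat1, which splits acetoacetyl-CoA (-0.57 ± 0.08, adjusted p = 0.00628).

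The skeletal muscle list (mean log2(value + 1) of 11 genes) read 4.55 to 5.36 at 22 C, and 7.71, 8.24, 4.26 and 9.96 at 30 C, with 10 of its 10 tested genes above 0 and 0 past the threshold. The muscle score of 30 C replicate 3 lay below that of every 22 C library. With the muscle score in the fit, 5 of the 44 genes were called and all fell (Idh3a at -1.01 ± 0.13, Sucla2, Suclg1, Dld and Pcca), 0.733% of all tested genes were called (90), and the TCA cycle median was -0.65. Of the thermogenic fat cell list 4 of 6 tested genes fell, with scores of 7.90 to 8.57 at 22 C and 6.14 to 6.93 at 30 C. Of the macrophage list 2 of 8 genes rose and 8 of 8 were above 0, with scores of 8.61 to 9.21 at 22 C and 9.24 to 9.52 at 30 C. The general fat cell scores overlapped (12.26 to 12.58 and 12.01 to 12.34). The part of these cell types in the result was not tested. Of the 22 C libraries 2 were high in Xist and of the 30 C ones 3, and 19 genes were called with it in the fit, where 4.32% of all tested genes were. The number called was 12, 11, 13 and 13 without 22 C replicate 2, 22 C replicate 4, 30 C replicate 1 and 30 C replicate 3, each of which moved the count by over 1.5 times; of all tested genes 1.41 to 2.55% were called in those fits.

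**Figure D2:**
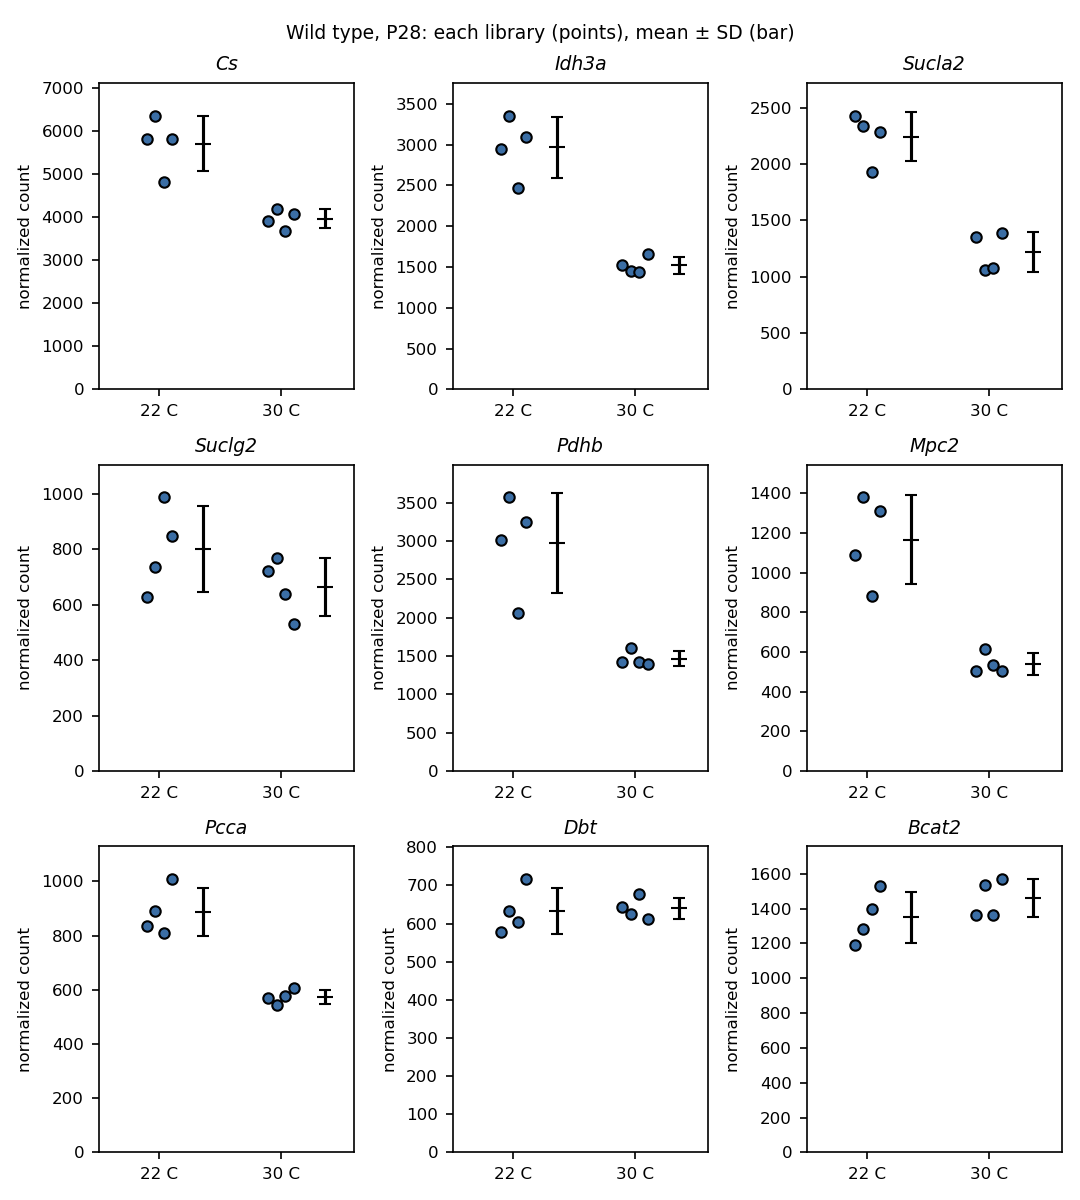
Points are the normalized counts of each library at P28 in wild-type mice (vertical axes, from 0) by housing temperature (horizontal axes), with the mean ± SD (n = 4). Idh3a reads 2472 to 3353 at 22 C and 1439 to 1662 at 30 C without overlap, whereas the Dbt values of the 2 groups lie among each other.

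The TrkA comparison at P28 uses the same 4 wild-type 22 C libraries, in a table normalized on its own, so it is no separate replication of the one above. In limma, 0 of the 44 genes passed, where 2.66% of all tested genes did (317 of 11899). By the same test 1.32% of all tested genes fell. Of the 44, 10 had an unadjusted p under 0.05, of which 7 belong to the TCA cycle, 2 to pyruvate entry and 1 to branched-chain breakdown, and 19.2% of all tested genes did so. All 13 TCA cycle genes had a log2 fold change below 0, with a median of -0.33 against -0.01 over all tested genes. The medians were -0.17 in pyruvate entry and 0.03 in branched-chain breakdown. Idh3a read 2593, 2932, 2190 and 2718 in wild-type libraries and 2178, 2030, 1805 and 1440 in TrkA Th-cre libraries, each of the latter below the lowest wild-type value (-0.49 ± 0.14, adjusted p = 0.0959). Dlst and Mdh1 were likewise separated, making 3 of 44, where 5.57% of all tested genes were lower without overlap and 5.63% higher, the latter including 0 of the 44. Pdk4, the kinase that blocks pyruvate entry, read 2217, 3288, 1319 and 1549 in wild-type libraries and 5837, 7491, 4227 and 999 in TrkA Th-cre libraries. TrkA replicate 4 was thus the lowest of all 8 while the other 3 were above all wild-type libraries, and the fold change of 0.91 ± 0.55 did not pass (adjusted p = 0.406). Without that library 2 genes rose, Pdk4 (1.54, adjusted p = 0.0215) and Dbt (0.36, adjusted p = 0.0432), where 7.15% of all tested genes were called. Without wild-type replicate 3 Pdhb fell (-0.60, adjusted p = 0.0423), where 2.27% were called. With library weights 4 fell, Cs, Idh3a, Dlst and Mdh1, at -0.36, -0.49, -0.34 and -0.33, where 8.04% of all tested genes were called.

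Among pathway genes outside the 44, 1 fell in the TrkA comparison: Gpt, an alanine aminotransferase, from 775.9 ± 126 to 455.7 ± 40.7 (SD, n = 4 each; -0.76 ± 0.13, adjusted p = 0.0164). Markers of other cells moved with the group. Of 11 muscle genes 3 rose (scores 4.42 to 5.25 in wild-type and 5.85 to 8.38 in TrkA Th-cre libraries), of 8 macrophage genes 4 rose, and of 6 tested thermogenic genes 2 fell. Of 5 Schwann cell genes 1 fell, all 5 were below 0 (median -0.87) and 2 were lower without overlap (scores 7.35 to 7.70 against 6.16 to 6.95). Of 7 general fat cell genes 1 fell, Retn (-1.04 ± 0.14, adjusted p = 0.00742). Of 6 fibroblast and progenitor genes 6 were above 0, 4 had an unadjusted p under 0.05 in limma and 0 passed. In 3 of them the TrkA Th-cre libraries were higher without overlap (5.63% of all tested genes). Of 5 tested endothelial genes 4 were below 0, 4 had an unadjusted p under 0.05 in limma (19.2% of all tested genes) and 0 passed. The part of these cell types in the values above was not tested.

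At P25, the libraries labelled Prx1-cre had lower branched-chain transcripts than floxed libraries without Cre. Of the 44 genes 9 fell, all in branched-chain breakdown (9 of its 18), where 1.97% of all tested genes fell, 251 of 12738. The 10 genes called in either direction compare with 3.53% of all tested genes. In pyruvate entry 1 of 13 rose, where 1.56% of all tested genes rose, and in the TCA cycle 0 of 13 passed in limma, with 5 at an unadjusted p under 0.05 (15.0% of all tested genes). The medians were -0.36 in branched-chain breakdown, -0.24 in the TCA cycle, -0.14 in pyruvate entry and 0.00 over all tested genes.

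The first steps were among those lower. Bcat2 (gene ID 12036, chromosome 7, 45568967 to 45589710), the mitochondrial aminotransferase, read 2429, 4817 and 6018 in floxed libraries (lowest, median and highest) and 1668, 2965 and 3329 in those labelled Prx1-cre. The fold change was -0.77 ± 0.18 (adjusted p = 0.0284). Overlap came from the floxed library F4 alone, at 2429, while the other 6 floxed libraries lay above all 8 labelled Prx1-cre. Library names here are the table's column codes, whose letter M or F goes with low or high Xist. Bckdha, the dehydrogenase's alpha subunit, read 3515, 4803 and 5417 against 2646, 2969 and 3671 (-0.53 ± 0.11, adjusted p = 0.00905), and Dbt, its acyltransferase core, 1261, 1571 and 1811 against 1009, 1095 and 1574 (-0.42 ± 0.11, adjusted p = 0.0363). F4 was the lowest floxed library for both. Bckdk, the kinase that switches that complex off (gene ID 12041, chromosome 7, 127904073 to 127909664), read 1229, 1349 and 1924 against 867, 1075 and 1154 without overlap (-0.49 ± 0.10, adjusted p = 0.00854). The kinase was thus lower together with 2 subunits of its target. Bckdhb (-0.37 ± 0.14, adjusted p = 0.179) and the phosphatase Ppm1k (-0.50 ± 0.18, adjusted p = 0.175) did not pass.

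Further down, some members fell on the leucine route and on the isoleucine and valine routes. Others there did not pass: Mccc1 (-0.07 ± 0.50), Auh (-0.12 ± 0.09), Acad8 (0.06 ± 0.15), Hibch (-0.05 ± 0.11) and Hibadh (-0.18 ± 0.10). Pccb (gene ID 66904, chromosome 9, 100982032 to 101034940) had the smallest adjusted p of the 44, with 3348, 4276 and 4662 in floxed libraries and 2488, 2909 and 3069 in those labelled Prx1-cre (-0.49 ± 0.08, adjusted p = 0.00197). Acadsb, the isoleucine acyl-CoA dehydrogenase, read 2475, 2733 and 2835 against 1785, 2054 and 2449 (-0.38 ± 0.07, adjusted p = 0.00588). Bckdk, Acadsb and Pccb were the 3 genes in which every library labelled Prx1-cre lay below every floxed one, 3 of 44 where 0.644% of all tested genes did. On the leucine route Ivd read 3287, 4021 and 4615 against 2920, 3225 and 3453 (-0.35 ± 0.08, adjusted p = 0.0139), and Mccc2 read 1200, 1713 and 2035 against 911, 1176 and 1356 (-0.54 ± 0.11, adjusted p = 0.0132). For both, only F4 of the floxed libraries reached into the other group. Pcca read 2389, 2465 and 2981 against 1697, 2028 and 2603, where M1 was the only library labelled Prx1-cre within the floxed range (-0.35 ± 0.08, adjusted p = 0.0294).

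Pdk3 (gene ID 236900, chromosome X, 93764616 to 93832150), a pyruvate dehydrogenase kinase, was the gene that rose, from 57.0, 79.7 and 96.9 to 89.9, 110 and 131 (0.51 ± 0.12, adjusted p = 0.031), with a narrow overlap. Its call was lost with the muscle score in the fit (adjusted p = 0.0513) and without any 1 of floxed M3 (0.0749) or F3 (0.0615) or of M1, M2, M3, M4, F1 or F2 labelled Prx1-cre (0.0511 to 0.0616). In the TCA cycle, Idh3a had a log2 fold change of -0.19 ± 0.14 (adjusted p = 0.601) and Sucla2 of -0.46 ± 0.13 (adjusted p = 0.0608). Outside the 44, Got2, mitochondrial aspartate aminotransferase, rose from 598.7 ± 40.9 (SD, n = 7) to 1038 ± 215 (SD, n = 8) without overlap (0.77 ± 0.10, adjusted p = 0.00036), and Me3, a mitochondrial malic enzyme, fell (-1.90 ± 0.34, adjusted p = 0.00449). Of the other 13 TCA cycle and 15 branched-chain genes tested, 0 passed in limma, with 5 and 6 at an unadjusted p under 0.05.

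Within the column letters the branched-chain median was -0.36 among M libraries (4 against 4) and -0.34 among F libraries (3 against 4). With those numbers limma called 1 of the 44 among M, Pccb, and 0 among F, where 0.88% and 0.146% of all tested genes were called. The muscle score ran from 3.60 to 11.8 in floxed libraries and 7.94 to 11.2 in those labelled Prx1-cre, and 6 genes were called with it in the fit, where 2.47% of all tested genes were. Of the thermogenic list 5 of 7 fell, and of the macrophage list 8 of 8 were above 0 and 0 passed. Their part in the result was not tested. Without M3 labelled Prx1-cre 6 genes were called, in place of 10, and 2.53% of all tested genes.

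**Figure D3:**
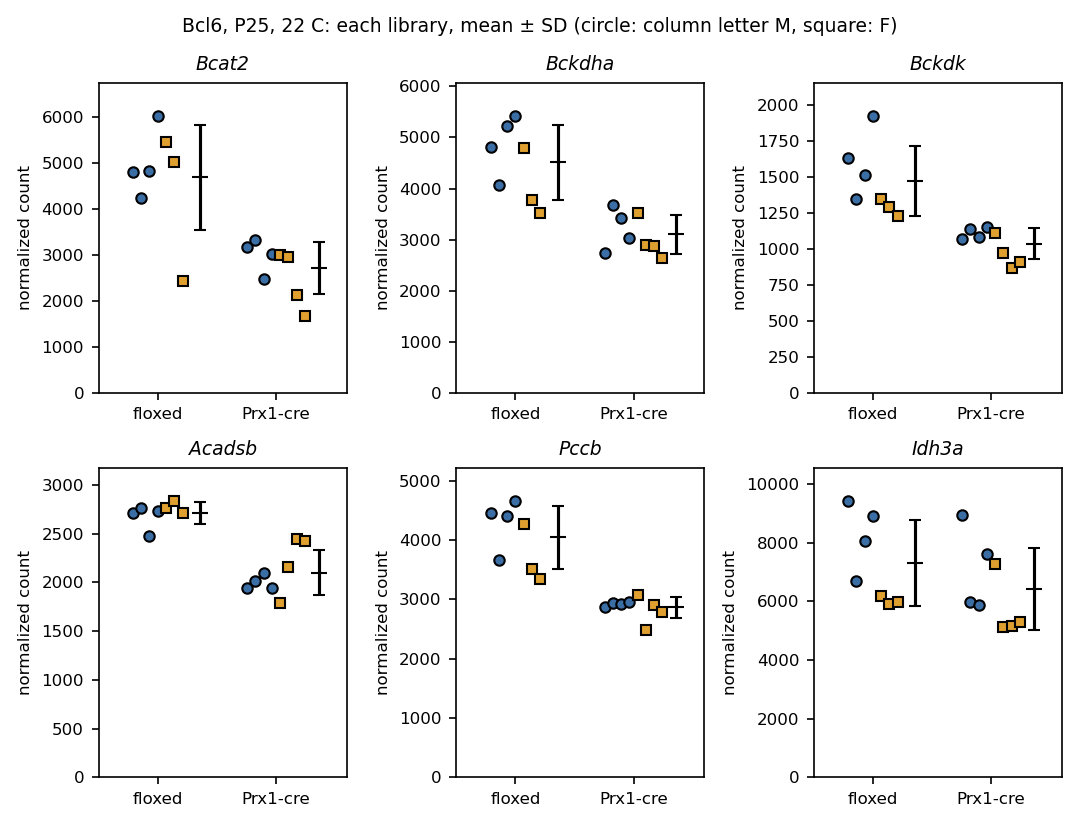
Points are normalized counts of each P25 library (vertical axes, from 0) by group (horizontal axes; floxed n = 7, labelled Prx1-cre n = 8), circles for column letter M and squares for F, with the mean ± SD. Bckdk, Acadsb and Pccb do not overlap between the groups, Bcat2 overlaps through 1 floxed library at 2429, and Idh3a overlaps broadly.

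At 9 weeks and 4 C, the libraries labelled Prx1-cre differed from floxed ones in 8 of the 44 genes. 6 fell, where 5.46% of all tested genes fell (737 of 13496), and 2 rose, where 9.01% of all tested genes rose. In either direction 14.5% of all tested genes were called, a share near that of the members. The share of members that rose was below that of all tested genes. With quantile normalization 17 of the 44 were called, where 15.7% of all tested genes were, and with library weights 19, where 35.4% were. An unadjusted p under 0.05 was found for 25 of the 44 and 29.9% of all tested genes. The medians were -0.39 in the TCA cycle, -0.19 in pyruvate entry, -0.22 in branched-chain breakdown and -0.02 over all tested genes. 13 genes were lower without overlap (10.1% of all tested genes) and 2 were higher (12.2%).

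The 2 that rose had the lowest level per kilobase of their families at P28 (above). Bcat1 (gene ID 12035, chromosome 6, 144993835 to 145076157), the cytosolic aminotransferase, read 63.0, 45.4, 76.6 and 39.3 in floxed libraries and 310, 348, 209 and 222 in those labelled Prx1-cre. The log2 fold change was 2.27 ± 0.25 (adjusted p = 0.00141). Its mitochondrial counterpart Bcat2 read 10811, 10381, 22810 and 14115 against 8022, 6566, 10626 and 8777, with floxed replicate 3 far above the rest, and did not pass (-0.72 ± 0.26, adjusted p = 0.0967). The log2 ratio of Bcat1 to Bcat2 ran from -8.45 to -7.40 in floxed libraries and from -5.66 to -4.24 in those labelled Prx1-cre. Bcat2 thus had the higher normalized count in all 8 libraries, and the ratio, which is not scaled to length, did not overlap between the groups. Pdk3 read 123, 132, 118 and 114 against 344, 338, 267 and 224 (1.24 ± 0.15, adjusted p = 0.00229), also without overlap.

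Those that fell were spread over all 3 routes. Cs read 47958, 39822, 42338 and 34755 against 26114, 30127, 30065 and 22687 (-0.60 ± 0.14, adjusted p = 0.0275), and Sucla2 15957, 14000, 15246 and 12957 against 7752, 9188, 10929 and 8239 (-0.70 ± 0.12, adjusted p = 0.00764). The groups did not overlap for either. The log2 ratio of Suclg2 to Sucla2 ran from -2.22 to -1.91 in floxed libraries and from -1.71 to -1.36 in those labelled Prx1-cre. In pyruvate entry Pdp2 read 1031, 947, 941 and 784 against 604, 645, 691 and 628 (-0.52 ± 0.09, adjusted p = 0.00861). In branched-chain breakdown Dbt (gene ID 13171, chromosome 3, 116513070 to 116549981) read 5865, 4999, 6249 and 5515 against 3400, 3589, 4111 and 3932 (-0.59 ± 0.09, adjusted p = 0.00469). Every library labelled Prx1-cre lay below every floxed one for Pdp2 and Dbt. Mccc2 read 3103, 3351, 4651 and 3415 against 2471, 2709, 2761 and 2611 (-0.44 ± 0.12, adjusted p = 0.0423), and Bckdk fell by 0.37 (SE 0.09, adjusted p = 0.0238).

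Of 15 other branched-chain genes tested, 4 fell and 1 rose. Bdh1, a ketone body dehydrogenase, fell from 138.3 ± 37.7 to 50.03 ± 13.4 (SD, n = 4 each; -1.44 ± 0.28, adjusted p = 0.0111) and Mcee, the methylmalonyl-CoA epimerase, fell by 0.65 (SE 0.10, adjusted p = 0.0045). Of 15 other pyruvate, citrate and malate genes 2 rose and 1 fell: Got2 rose from 1237 ± 301 to 2316 ± 333 (0.92 ± 0.17, adjusted p = 0.00861), Me2 rose (0.34), and the monocarboxylate carrier Slc16a1 fell (-1.34 ± 0.17, adjusted p = 0.00232). Of 14 other TCA cycle genes 1 fell, the lipoate transfer gene Lipt1 (-0.71).

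Floxed replicate 3 had a muscle score of 14.4, against 7.09 to 9.58 in the other 3 floxed libraries and 3.80 to 8.12 in those labelled Prx1-cre. It also had the highest Bcat2, at 22810. Without it 10 of the 44 genes were called, the 8 that fell now including Acadsb and Pcca, and 26.0% of all tested genes. With the muscle score in the fit 6 were called, 3 in each direction, and 21.2% of all tested genes. Of the macrophage list 8 of 8 genes rose and of the thermogenic list 7 of 7 fell in this comparison, and their part in the result was not tested. Without floxed replicate 2, 5 genes were called, and 8.05% of all tested genes. All 8 libraries were high in Xist, at 20648 to 28366.

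**Figure D4:**
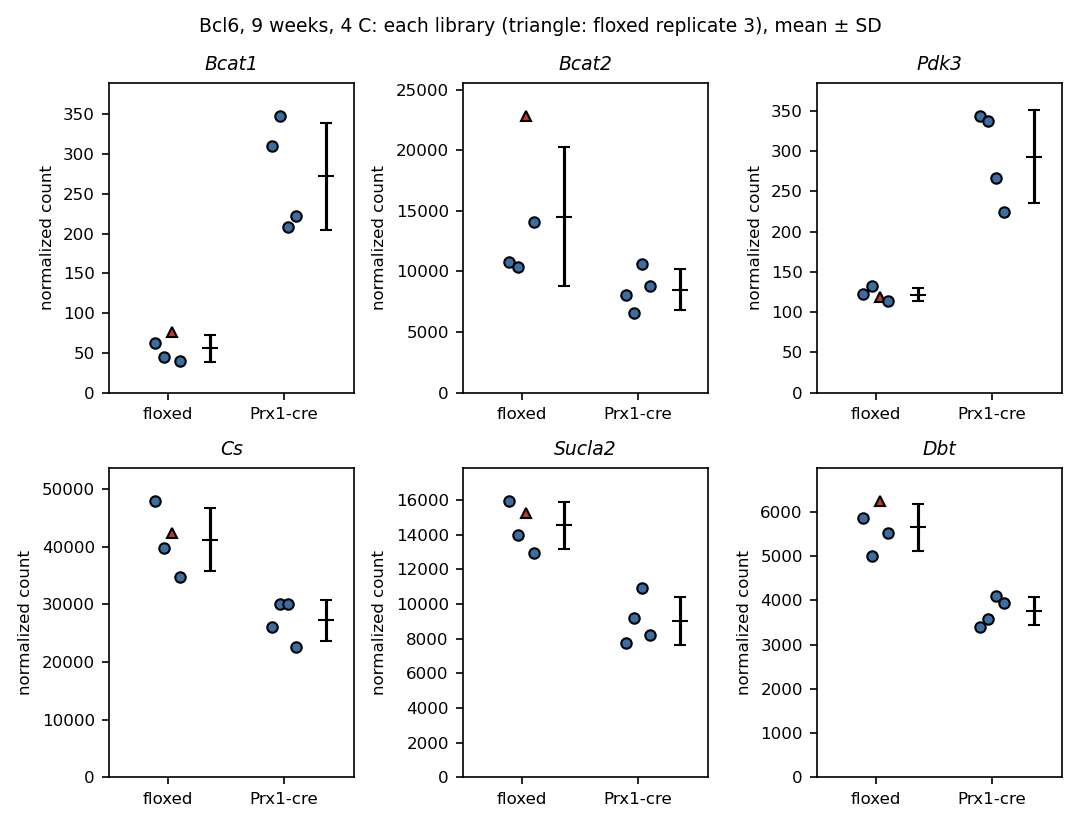
Points are normalized counts of each library at 9 weeks and 4 C (vertical axes, from 0) by group (horizontal axes, n = 4 each), with the mean ± SD and a triangle for floxed replicate 3. Bcat1 and Pdk3 lie higher and Cs, Sucla2 and Dbt lower in the libraries labelled Prx1-cre without overlap, while Bcat2 overlaps and has its highest value, 22810, in floxed replicate 3.

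The genotype effect was compared between the ages gene by gene, as the difference of the 2 log2 fold changes with its own error. Temperature, age and the mix of Xist classes differ together between these tables. All libraries at 9 weeks were high in Xist, whereas at P25 those with column letter M were low and those with F high. Of the 44 genes 0 differed after adjustment over all 12487 genes in both tables, of which 0.304% did (0.232% higher at 9 weeks and 0.0721% lower). An unadjusted p under 0.05 was found for 5 of the 44 and 9.19% of those genes. Bcat1 had a fold change of 2.27 ± 0.25 at 9 weeks and 0.54 ± 0.35 at P25, a difference of 1.73 ± 0.43 (SE; adjusted p = 0.111). Pdk3 differed by 0.73 ± 0.20 (adjusted p = 0.163). The genes called at P25 and those called at 9 weeks are therefore not shown to differ in their response.

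In adult wild-type mice, Mdh1 and Dbt were higher at 4 C than at 22 C, and the other members did not pass the threshold. Of the 44 genes 2 rose, where 2.03% of all tested genes rose (246 of 12118), and 0 fell in limma, with 23 at an unadjusted p under 0.05 (23.8% of all tested genes). In either direction 4.47% of all tested genes were called, a share near that of the members. All 13 TCA cycle genes were above 0, with a median of 0.85. The medians were 0.47 in pyruvate entry, 0.35 in branched-chain breakdown and 0.02 over all tested genes. 14 genes were higher without overlap (9.16% of all tested genes), 9 of them in the TCA cycle, and 1 was lower, Pdk1 (8.15%).

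Mdh1 (gene ID 17449, chromosome 11, 21556692 to 21571934), the cytosolic malate dehydrogenase, read 7371, 6966, 4490 and 5705 at 22 C and 15980, 20203, 10085 and 10358 at 4 C (1.17 ± 0.27, adjusted p = 0.0498). Dbt read 1260, 1202, 697 and 901 at 22 C and 2721, 3475, 1911 and 2176 at 4 C (1.34 ± 0.24, adjusted p = 0.0298). Neither overlapped, and in each group replicates 1 and 2 were above replicates 3 and 4. Idh3a followed the same order, with 3750, 4145, 1986 and 2772 against 8230, 14607, 5926 and 5329 (1.37 ± 0.35, adjusted p = 0.0625). Sucla2 (1.26 ± 0.31, adjusted p = 0.0578) also missed the threshold narrowly. Leaving out any 1 library left 0 or 1 gene called. The 1 was Dbt, without replicate 3 at 22 C or without replicate 3 at 4 C.

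Replicates 1 and 2 of both groups were low in Xist, the RNA of the inactive X chromosome, and replicates 3 and 4 were high. The temperatures were therefore also compared within each class. At 22 C the muscle scores (below) were low in replicates 1 and 2 and high in replicates 3 and 4. At 4 C they did not follow Xist class. The part of muscle in the differences within a class was not tested. In both classes, all 4 C libraries lay above all 22 C libraries for 28 of the 44 genes, where 17.2% of all tested genes did: 13 of 13 in the TCA cycle, 5 of 13 in pyruvate entry and 10 of 18 in branched-chain breakdown. For Idh3a the log2 difference was 1.48 in the low class and 1.26 in the high one. With Xist class in the fit, a term added after seeing the data, 24 of the 44 were called (23 rose and 1 fell), where 18.4% of all tested genes were. These comprised 11 in the TCA cycle, 7 in pyruvate entry and 6 in branched-chain breakdown. Idh3a then stood at 1.37 ± 0.19 (adjusted p = 0.00514), Dbt at 1.34 ± 0.12 (0.0012) and Mdh1 at 1.17 ± 0.14 (0.00337).

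Regulators of pyruvate entry differed in direction. Pdk1 read 1145, 946, 1082 and 1199 at 22 C and 875, 884, 690 and 616 at 4 C, every 4 C library below every 22 C library (-0.52 ± 0.14, adjusted p = 0.074), and it was the gene that fell with Xist class in the fit. Pdk4 read 1050, 3876, 1457 and 1334 against 3853, 7285, 4420 and 2703, where replicate 2 at 22 C lay among the 4 C libraries (1.35 ± 0.43, adjusted p = 0.104). Dlat read 2385, 2420, 1649 and 2135 against 4612, 6717, 2999 and 2982 (0.94 ± 0.27, adjusted p = 0.0823) and did not overlap. In branched-chain breakdown, Bcat2 read 4714, 3841, 1916 and 1971 against 6065, 6604, 4554 and 6372 (1.02 ± 0.31, adjusted p = 0.0923), and Mccc1 read 67.2, 18, 139 and 135 against 336, 440, 264 and 344 (2.28 ± 0.59, adjusted p = 0.0628). Bckdk, the kinase of the branched-chain complex, had a log2 fold change of -0.02 ± 0.22. Outside the 44, Slc3a2, the heavy chain of an amino acid carrier, rose from 926.4 ± 80.6 to 2166 ± 471 (SD, n = 4 each; 1.20 ± 0.16, adjusted p = 0.013), and Hsd17b10, an enzyme of isoleucine breakdown, rose too (1.33 ± 0.21, adjusted p = 0.0215). They were 2 of 15 other branched-chain genes tested. Of the other TCA cycle and pyruvate genes 0 of 13 and 0 of 15 passed in limma, with 3 and 4 at an unadjusted p under 0.05. The muscle scores were 1.86, 2.04, 11.0 and 10.3 at 22 C and 10.1, 1.01, 6.04 and 9.49 at 4 C, overlapping, and 18 of the 44 genes were called with the score in the fit, where 15.3% of all tested genes were. Of the thermogenic list 2 of 7 rose. Of 5 Schwann cell genes 2 fell and 4 were lower at 4 C without overlap (scores 8.08 to 8.55 at 22 C and 7.31 to 7.81 at 4 C). Of 5 tested endothelial genes 0 passed in limma, with 2 at an unadjusted p under 0.05 and 2 lower without overlap. The 3 tested B and T lymphocyte genes were all below 0 (median -3.13). All 3 had an unadjusted p under 0.05 in limma, but 0 passed and 0 were lower without overlap. All 6 mammary epithelium genes were above 0 (median 1.10), and 0 passed. The part of these cell types in the result was not tested.

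**Figure D5:**
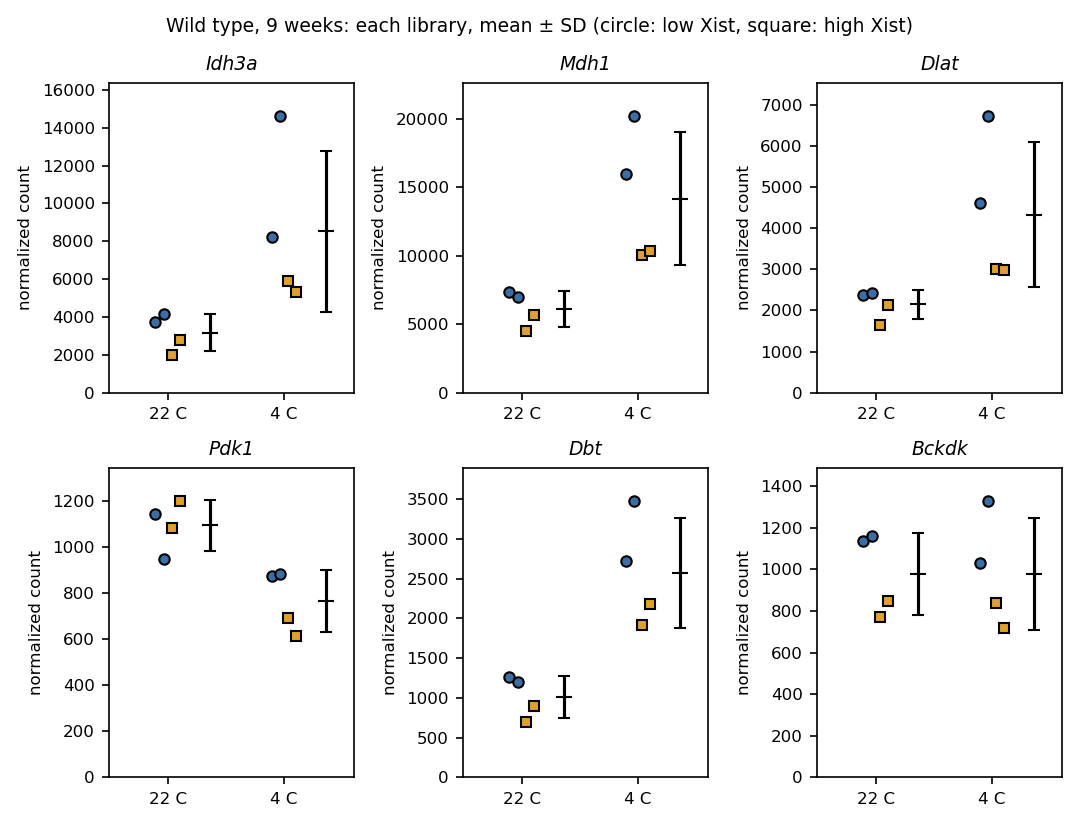
Points are normalized counts of each wild-type library at 9 weeks (vertical axes, from 0) by temperature (horizontal axes, n = 4 each), marked by Xist class, with the mean ± SD. Idh3a reads 1986 to 4145 at 22 C and 5329 to 14607 at 4 C, with the libraries low in Xist above those high in Xist at each temperature, and Pdk1 is lower at 4 C without overlap.

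Cooling was compared between ages in the same way, from 22 C to 4 C at 9 weeks and from 30 C to 22 C at P28; the temperatures and their steps differ. Of the 44 genes 2 differed, where 3.33% of 11618 genes in both tables did (1.37% with the adult effect higher and 1.96% with it lower). An unadjusted p under 0.05 was found for 7 of the 44 and 17.8% of those genes. Dbt had a log2 fold change of 1.34 ± 0.24 on adult cooling and -0.02 ± 0.08 at P28, a difference of 1.36 ± 0.25 (SE; adjusted p = 0.0195). Pdk1 had -0.52 ± 0.14 in adults and 0.25 ± 0.08 at P28, a difference of -0.77 ± 0.17 (adjusted p = 0.0228). For Idh3a, higher in the cooler group at both ages, the difference was 0.41 ± 0.36 (adjusted p = 0.619).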

How the data were processed

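The authors deposited signal values, namely normalized counts per gene, in 5 tables. The submitters' processing notes name kallisto, DESeq2 and mm10; their versions and the annotation are not stated there. Per the labels' protocols, RNA came from frozen tissue and libraries from a stranded mRNA kit. Tables were normalized separately, so levels were tested only within a table.

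The members and lists were chosen with earlier results of these data known. limma 3.58.1 (R 4.3.3) was run on log2(value + 1) with a mean-variance trend. A gene needed a value of 10 in at least the smaller group's number of libraries. Benjamini-Hochberg adjustment ran over all tested genes, with 0.05 as the threshold. For low genes this scale gives too small a change. Differences between tables used the difference of fold changes against a t reference. Members named were those called, plus their isoforms, partners and regulators. Some genes are not reported here. Genes most alike Idh3a were left out, because groups stand apart within each table. The deposited P25 columns carry codes that match no title and were mapped by group. 21 of 22622 gene identifiers had no symbol in the RefSeq table of GRCm38.p6, the build mm10.

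Depth was estimated from the step between low values at 3812040 to 6390920 reads (P28 temperature), 3486370 to 6392080 (TrkA), 4970870 to 15689200 (P25), 16649600 to 30117500 (9-week Bcl6) and 6227680 to 8597070 (9-week temperature). Only 37.2 to 84.9% of low values were whole multiples within 0.02, so no count test was run. Alternatives were other scalings, filters and pseudocounts (0.5 and 5), covariates for muscle and Xist, library weights, a replicate block and each library left out. Figures used matplotlib 3.10.9 (Python 3.11.15).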

Additional observations from a re-analysis of the deposited data

Results flagged for a closer look

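In 18 of 396 sets of 4, 7 or 8 libraries (1 gene in 1 group; 4.55%), 1 library stood apart from the rest of its group by Dixon's test at the 95% level; chance alone gives about 1 set in 20. At P28, wild-type replicate 3 at 22 C had a Pdk3 of 102, and replicate 2 at 30 C had a Pdhb of 1608. TrkA Th-cre replicate 4 was low in Dld (1296), Acadsb (896) and Hibadh (1059). Among floxed P25 libraries, M4 had a Pcx of 50163, M3 an Acadsb of 2475 and F3 an Acad8 of 27.1. Among those labelled Prx1-cre at P25, M1 had a Dld of 6282 and a Pcca of 2603, and M4 a Ppm1k of 208. At 9 weeks and 4 C, floxed replicate 3 was high in Bckdha (12773), Acadsb (8634) and Hibadh (13594), and Prx1-cre replicate 4 had a Dld of 10893. Among adult wild-type libraries, replicate 2 at 22 C had a Pdk4 of 3876, replicate 3 at 22 C a Bcat1 of 241 and replicate 2 at 4 C an Mpc1 of 3677.

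The cooling effect differed between the adult and P28 comparisons for Dbt, by 1.36 on the log2 scale, and for Pdk1, by -0.77 (adult minus P28). These were 2 of 44 members, where 3.33% of the 11618 genes tested at both ages differed. Age and temperature step differ together between these comparisons.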

How the results depend on the processing

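Of 4389 alternative values for single genes, 4083 kept direction and side of the threshold, 144 newly passed it, 162 no longer did and 0 reversed. Counts of members called moved by over 1.5 times as follows, and the cause was not tested. The share of all tested genes called in the same fit follows each count. For 30 C at P28 (20 called), the muscle covariate gave 5 (0.733%). For TrkA (0), library weights gave 4 (8.04%). At P25 (10), the muscle covariate gave 6 (2.47%), M libraries alone 1 (0.88%) and F libraries alone 0 (0.146%). For Bcl6 at 9 weeks (8), quantile normalization gave 17 (15.7%) and library weights 19 (35.4%). For adult cold (2), quantile normalization gave 14 (6.11%), no filter 1 (2.08%), the muscle covariate 18 (15.3%), the Xist covariate 24 (18.4%), library weights 7 (15.4%), libraries low in Xist 8 (8.84%) and those high in Xist 7 (3.18%). With a normal reference, 2 members differed between ages in the Bcl6 effect (1.33%) and 4 in the cooling effect (9.05%). With 1 library left out, the counts ran from 11 to 22 (30 C), 0 to 2 (TrkA), 6 to 11 (P25), 5 to 11 (Bcl6 at 9 weeks) and 0 to 1 (adult cold).

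Replicate numbers were not taken as pairs, since in no table did every same-numbered pair correlate over 0.1 (adult cold -0.26, 0.77, 0.50 and 0.51). In adult cold, Xist class followed replicate number in both groups, and this rule cannot exclude partial pairing. With a replicate block, 15 (30 C; 1.92% of all tested genes), 0 (TrkA; 2.16%), 10 (Bcl6 at 9 weeks; 8.68%) and 21 (adult cold; 13.7%) were called. At P25 both groups share 7 column codes, which match no sample title. Their correlations ran from -0.22 to 0.62, 5 of 7 were over 0.1 and 4 codes correlated best with their own. A replicate block by these codes, added after seeing the data, gave 17 (5.74%). Few reads lie behind genes with low values, such as Acad8 and Pdhx.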
